A study of Mus musculus with 2 samples.

Results

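The genes described here are the 10 microRNA (miRNA) genes of the Mir17-92 cluster (Mir17, Mir18, Mir19a, Mir20a, Mir19b-1 and Mir92-1), the Mir106b-25 cluster (Mir106b, Mir93 and Mir25) and the related gene Mir92b, taken by their GENCODE M21 names from the 2202 miRNA genes in the deposited tables. All 10 were listed. They were measured by microRNA sequencing of RNA under 30 bases from 2 libraries of 1 group, male B6CASTF1/J mice aged 25 days, the first-generation cross of C57BL/6J with CAST/EiJ. The labels name the tissue as a layer of hippocampus and give no treatment or mutation. They number the libraries as biological replicates 1 and 2 of separate biosamples that point to a common donor record, and their spread may thus be partly technical.

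The Mir17-92 and Mir106b-25 clusters are each made as a long transcript that is cut into several hairpin precursors, and each hairpin yields a mature miRNA of little more than 20 bases. Both clusters are known for promoting growth and cell cycle entry in progenitor and tumour cells, where MYC and E2F factors drive their transcription, and Mir17-92 is best known in the nervous system from neural progenitors. Mir106b-25 lies within Mcm7, the gene of a subunit of the helicase that opens DNA for replication. A mature miRNA recognises its targets mainly through its seed, bases 2 to 8, so genes with the same seed are expected to share many targets whatever cluster they come from.

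The 10 genes carry 4 seeds. Their main mature sequences, from RefSeq (GRCm38.p6), are shown first because levels are also summed by these groups below. The capitals mark the seed. Both libraries were counted per gene, so the arm of the hairpin that a read came from is not known, and the arm shown is the one usually taken as the main product.
The miR-17 seed is shared by 4 of the genes, from both clusters:
mmu-miR-17-5p: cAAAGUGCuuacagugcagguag
mmu-miR-20a-5p: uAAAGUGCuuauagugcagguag
mmu-miR-93-5p: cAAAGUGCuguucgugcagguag
mmu-miR-106b-5p: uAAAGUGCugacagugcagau
The miR-18 seed belongs to Mir18 among them:
mmu-miR-18a-5p: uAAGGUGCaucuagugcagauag
The miR-19 seed belongs to Mir19a and Mir19b-1:
mmu-miR-19a-3p: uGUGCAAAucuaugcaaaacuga
mmu-miR-19b-3p: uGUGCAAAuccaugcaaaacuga
The miR-25/92 seed is shared by Mir92-1, Mir25 and Mir92b, which lie on 3 chromosomes:
mmu-miR-92a-3p: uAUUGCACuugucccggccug
mmu-miR-25-3p: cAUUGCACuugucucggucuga
mmu-miR-92b-3p: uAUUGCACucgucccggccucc

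Within a seed group the closest sequences differ by few bases. Counting positions from the 5′ end, miR-20a-5p differs from miR-17-5p by C1U and C12U, with the base of miR-17-5p given first, and miR-93-5p differs from miR-17-5p by U10G, A11U, C12U and A13C. The miR-19 sequences differ by U11C, from miR-19a-3p to miR-19b-3p. Over their shared 21 bases, miR-92b-3p differs from miR-92a-3p by U10C and G21C. It is farther from miR-25-3p, with 6 substitutions over 22 bases. The change from the miR-17 to the miR-18 seed is A4G, from miR-17-5p to miR-18a-5p, beside 5 differences outside the seed. A read of most of these genes can therefore be told from its nearest relatives by 1 or a few bases. The exceptions are Mir19b-1 and Mir92-1, whose mature sequences are identical to those of Mir19b-2 and Mir92-2 on chromosome X. The deposited tables hold reads that aligned to several places apart from the gene counts, at 6059074 reads (43.6% of all reads) in replicate 1 and 6908203 (43.2%) in replicate 2. The counts of these genes may therefore be incomplete.

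On mm10, Mir17-92 spans 836 bases of the plus strand of chromosome 14, from Mir17 (115043671 to 115043754) to Mir92-1 (115044427 to 115044506), and all 6 precursors lie in exons of the noncoding gene Mir17hg. Mir106b-25 spans 498 bases of the minus strand of chromosome 5, from Mir106b (138165737 to 138165818) through Mir93 (138165523 to 138165610) to Mir25 (138165321 to 138165404). Mir106b lies in an intron of Mcm7, and Mir93 and Mir25 lie in an exon of some Mcm7 transcripts and an intron of others. Mir92b lies on the minus strand of chromosome 3, from 89227116 to 89227198, in no annotated gene of its strand.

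The counts on the strand of the miRNA genes summed to 5183641 in replicate 1 and 5871233 in replicate 2. Levels are given as counts per 1000000 of these (CPM). In reads assigned to a gene, a count of 0 allows up to 0.579 CPM in replicate 1 and 0.511 CPM in replicate 2, taking 3 counts as the limit. These limits and the 95% intervals below, which are exact Clopper-Pearson intervals, cover counting error only. A gene was called detected at 10 or more counts in each library. Of the 10 genes, 8 were detected, against 445 of all 2202 miRNA genes (20.2%), and all 8 had 100 or more. The median level of the 10 was 304 CPM, against 0 CPM over all miRNA genes, of which 1401 (63.6%) had no count in either library. Together the 10 genes took 1.38% of the gene-assigned counts in replicate 1 and 1.26% in replicate 2.

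Mir92b stood far above the cluster genes. It had 8951 CPM in replicate 1 (95% interval 8870 to 9032) and 8082 CPM in replicate 2 (8010 to 8155), from 46397 and 47451 reads. That made it the 24th of all miRNA genes by mean CPM, at 8516 ± 614 CPM (SD, n = 2). It took 65.0% and 64.0% of the counts of the 10 genes in replicates 1 and 2, 1.86 and 1.78 times the other 9 together. In mouse, Mir92b is known from neural progenitors of the developing cortex, where it limits the number of intermediate progenitors.

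Mir93, in Mcm7, was the highest gene of either cluster. It had 2434 CPM in replicate 1 (2392 to 2477) and 1989 CPM in replicate 2 (1953 to 2025), a mean of 2212 ± 315 CPM (SD, n = 2). Mir17, the gene that names the chromosome 14 cluster, had 1138 CPM (1109 to 1167) in replicate 1 and 1049 CPM (1023 to 1076) in replicate 2. In both libraries Mir93 was thus about double Mir17, by 2.14-fold and 1.90-fold. Mir92-1, the last gene of its cluster, had 717 CPM (694 to 740) in replicate 1 and 614 CPM (594 to 634) in replicate 2. Mir20a, whose mature form shares the miR-17 seed, had 283 CPM (269 to 298) in replicate 1 and 236 CPM (224 to 249) in replicate 2. For these 4 genes the SD was between 5.74% and 14.2% of the mean, and all 4 were lower in replicate 2.

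Mir106b, the first gene of the Mcm7 cluster, was the least steady of the 10. It had 157 CPM (147 to 168) in replicate 1 and 538 CPM (520 to 557) in replicate 2, from 815 and 3161 reads. Its mean of 348 CPM therefore carries an SD of 270 CPM (n = 2), which is 77.5% of it. Mir18, which has its own seed, had 50.2 CPM (44.2 to 56.6) in replicate 1 and 67.4 CPM (61.0 to 74.4) in replicate 2. Mir25, the third gene in Mcm7, had 35.9 CPM (30.9 to 41.4) in replicate 1 and 49.6 CPM (44.0 to 55.6) in replicate 2. Both lay close to the median of 51.2 CPM over all detected genes, at the 216th and 235th place by mean CPM.

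Mir19a and Mir19b-1 had 0 counts in both libraries. The column that ignores strand and the column of the opposite strand also held 0 for them. In mouse lymphoma models, miR-19 is known as the main growth-promoting product of the cluster.

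By mean CPM the order was Mir92b, Mir93, Mir17, Mir92-1, Mir106b, Mir20a, Mir18, Mir25 and then the pair at 0. Of the 9 neighbouring pairs in this order, 7 were separate, in that the lower library of the upper gene lay above the higher library of the lower gene. Mir106b and Mir20a were not separate, since Mir106b lay below Mir20a in replicate 1 and above it in replicate 2, and Mir19a and Mir19b-1 were both at 0. These levels compare counts of whole short reads and were not divided by length. The mature sequences are 21 to 23 bases long, and dividing by that length left the order as it was.

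**Figure D1:**
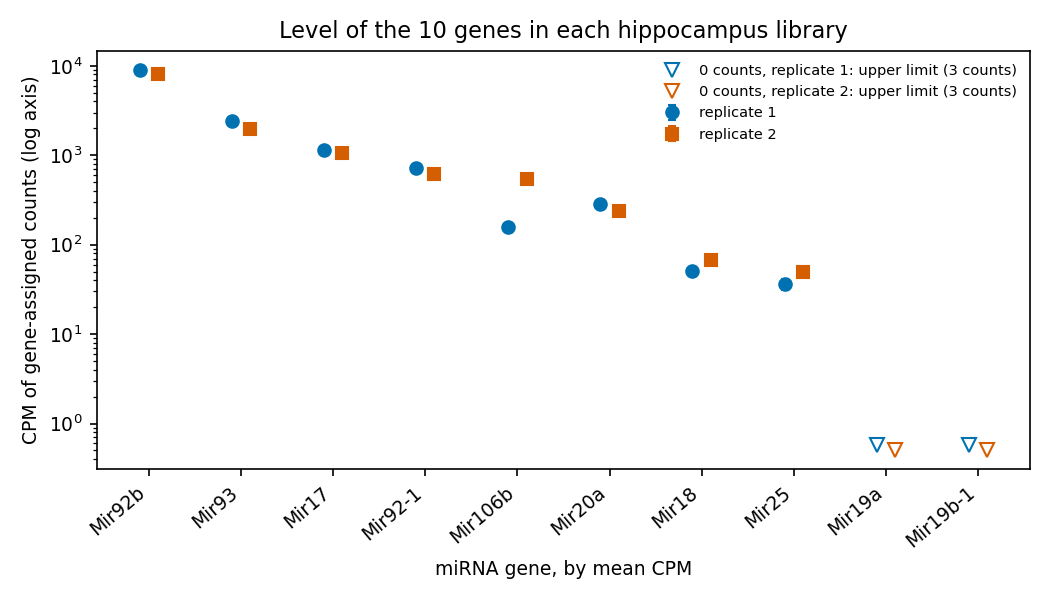
CPM of the gene-assigned counts (log axis) of the 10 genes in replicate 1 (circles) and replicate 2 (squares), with 95% Clopper-Pearson intervals that are mostly smaller than the symbols. Open triangles mark the limit that 0 counts allow for Mir19a and Mir19b-1. Mir92b lies highest, at 8951 and 8082 CPM, and Mir106b is the gene whose symbols lie farthest apart.

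Within the clusters, the genes of a shared transcript differed widely. Along Mir17-92, from its 5′ end, the levels in replicate 1 were 1138 CPM for Mir17, 50.2 CPM for Mir18, 0 for Mir19a, 283 CPM for Mir20a, 0 for Mir19b-1 and 717 CPM for Mir92-1. Replicate 2 had the same order of levels. The level did not follow the position in the transcript: the highest genes were the first and the last, and the genes at 0 lay on either side of Mir20a. Mir17 took 52.0% and 53.3% of the cluster's counts in replicates 1 and 2, Mir92-1 took 32.8% and 31.2%, Mir20a 13.0% and 12.0%, and Mir18 2.29% and 3.43%. Mir17 was 22.7-fold and 15.6-fold higher than Mir18, its neighbour. Set against the limit of 3 counts per library, Mir17 was at least 1966-fold higher than Mir19a in replicate 1 and at least 2053-fold higher in replicate 2. Mir20a, the next gene, was at least 490-fold and 462-fold higher than Mir19a. These bounds are for reads assigned to the genes. No such bound is given for Mir19b-1, whose mature sequence has an identical copy.

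The hairpins of Mir19a and Mir19b-1, both at 0, and of their counted neighbour Mir92-1 are shown with the main arm in capitals, from RefSeq (GRCm38.p6), to compare the genes with and without counts.
Mir19a: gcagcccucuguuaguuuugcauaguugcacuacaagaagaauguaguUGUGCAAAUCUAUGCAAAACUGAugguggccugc
Mir19b-1: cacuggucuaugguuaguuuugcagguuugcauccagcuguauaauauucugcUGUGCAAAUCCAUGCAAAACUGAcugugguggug
Mir92-1: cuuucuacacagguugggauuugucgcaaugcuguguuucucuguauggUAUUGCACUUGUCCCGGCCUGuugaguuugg
The sequence of miR-19b-3p is also made by Mir19b-2, and the longest stretch that the Mir19b-1 and Mir19b-2 hairpins share is 25 bases. No other annotated mature miRNA in the RefSeq table is identical to miR-19a-3p, the nearest being miR-19b-3p. The longest stretch its hairpin shares with any other is 13 bases. Mir92-1 shares 22 bases with Mir92-2 and had 3716 counts in replicate 1 and 3605 in replicate 2, from an arm that is not known. Whether reads of miR-19 were among those aligned to several places was not tested, as these files do not give the places.

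Genes at 0 inside an expressed cluster were found elsewhere too. Among genes with a Mir symbol, 11 genomic clusters had at least 3 genes on a strand, each within 5 kb of the next, and a top gene of at least 500 CPM. A gene at 0 in both libraries occurred in 4 of the 11, Mir17-92 included, and 63.6% of all miRNA genes were at 0. Genes at 0 numbered 2 of 6 in Mir17-92 and 57 of 71 in the cluster of Mir466m to Mir669h. They numbered 2 of 38 in that of Mir379 to Mir3072 and 1 of 11 in that of Mir337 to Mir136. Levels also differed within each of these clusters, which held 3 to 71 genes. The top gene exceeded the lowest gene with any count by 18.6-fold in Mir17-92 and by 51.8-fold in Mir106b-25, while the other 9 clusters ranged from 2.98-fold in the cluster of Mir99b, Mirlet7e and Mir125a to 13566-fold in that of Mir379 to Mir3072.

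In Mir106b-25 most counts were those of the middle gene. Mir93 took 92.6% of the cluster's counts in replicate 1 and 77.2% in replicate 2, Mir106b 5.98% and 20.9%, and Mir25 1.37% and 1.92%. Mir93 was 67.8-fold higher than Mir25 in replicate 1 and 40.1-fold higher in replicate 2.

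**Figure D2:**
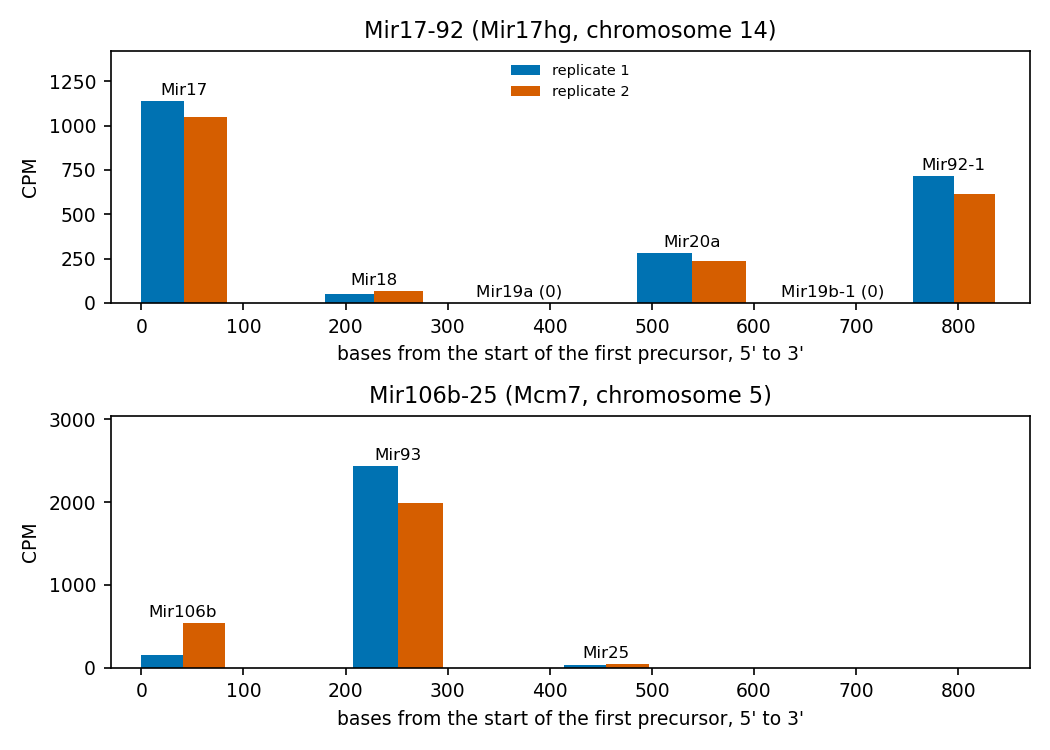
CPM of each gene (vertical axis, from 0) at the place of its precursor along Mir17-92 (top) and Mir106b-25 (bottom), in bases from the start of the first precursor in the direction of transcription. Bars span the precursor, with replicate 1 on its left and replicate 2 on its right. Mir19a and Mir19b-1 have no bar, since both had 0 counts, and Mir93 carries most of its cluster.

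Summed over its genes, Mir17-92 had 2188 CPM in replicate 1 and 1967 CPM in replicate 2, and Mir106b-25 had 2627 and 2577 CPM. Mir17-92 was thus below Mir106b-25 in both libraries, at 0.833 and 0.763 of it, a mean ratio of 0.798 ± 0.0493 (SD, n = 2). With 2 libraries this order was not tested. Without Mir92-1 and Mir19b-1, the genes with an identical copy, the mean ratio was 0.542 ± 0.0248. Both genes belong to Mir17-92, so leaving them out could only lower the ratio. Their counts may be incomplete, and with them the sum of Mir17-92. The order of the clusters therefore holds for reads assigned to the genes.

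By seed, the counts of the 10 genes were mostly those of the miR-25/92 group. This group took 70.5% in replicate 1 and 69.3% in replicate 2, summing to 9703 and 8746 CPM, nearly all of it from Mir92b. Mir92b was 12.5-fold and 13.2-fold higher than Mir92-1, and 249-fold and 163-fold higher than Mir25. The count of Mir92-1 may be incomplete, as its mature sequence has an identical copy. The miR-17 group took 29.1% and 30.2%, summing to 4013 and 3813 CPM from 4 genes on 2 chromosomes. The miR-18 seed took 0.364% and 0.534%, and the miR-19 seed 0%. For the miR-17 group, and likewise for the miR-25/92 group, the shares in the 2 libraries lay within 2 percentage points of each other.

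The RefSeq table holds 9 further genes that make a mature miRNA with one of these seeds, and all lay under 30 CPM. Of the 6 genes of the paralogous cluster on chromosome X, Mir92-2 had 26.4 CPM in replicate 1 and 14.5 CPM in replicate 2. Mir20b had 4.63 and 5.96 CPM, Mir363 had 1.54 and 2.38 CPM, and Mir106a had 0.965 and 3.58 CPM, from 5 and 21 reads. Mir18b had 1 read in each library and Mir19b-2 none. The sum of the X-linked cluster was 33.8 CPM in replicate 1 and 26.6 CPM in replicate 2. In reads assigned to the genes, Mir17-92 was 64.8-fold and 74.0-fold higher. Both sums may be incomplete, since Mir92-2 and Mir19b-2 make the same mature sequences as Mir92-1 and Mir19b-1. Mir106a makes a mature form that differs from miR-17-5p by U10A, and Mir17 had 1138 CPM in replicate 1 and 1049 CPM in replicate 2. Mir32, in an intron of Tmem245, had 23.5 and 25.7 CPM, below Mir25 in both libraries. Mir367, a gene of pluripotent cells, and Mir6383 had 0 counts in both libraries. The miR-19 seed thus had 0 counts on all 3 of its annotated genes, Mir19a, Mir19b-1 and Mir19b-2, on 2 chromosomes.

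**Figure D3:**
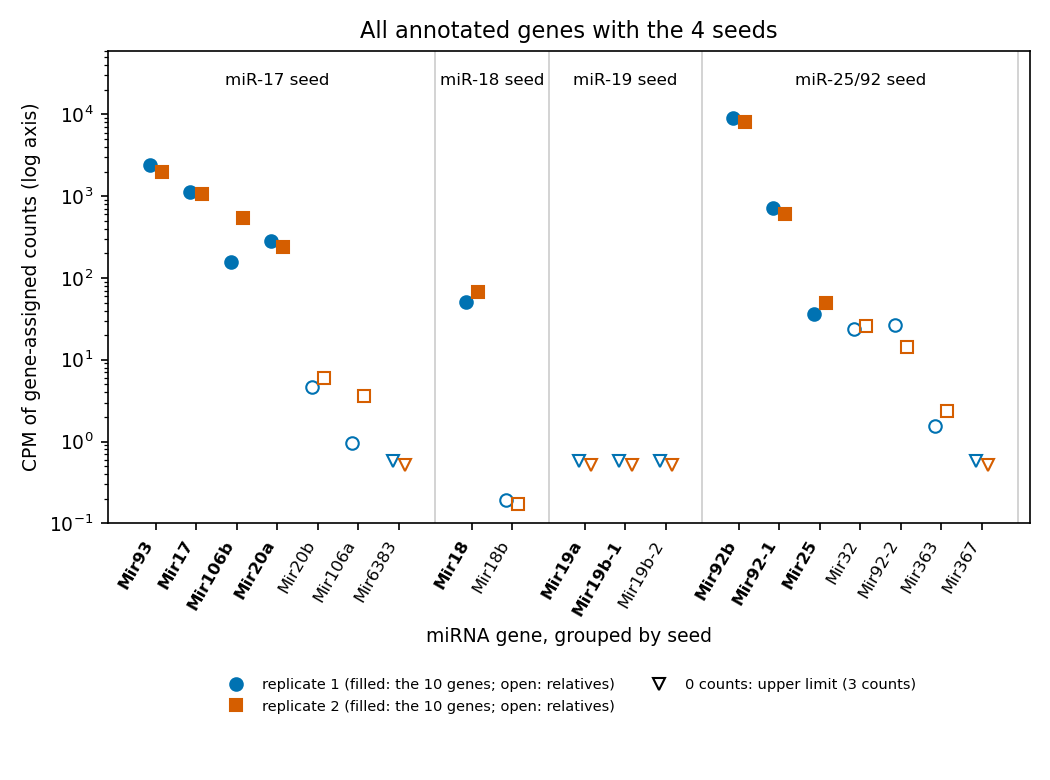
CPM (log axis) of every annotated gene with the miR-17, miR-18, miR-19 or miR-25/92 seed, in replicate 1 (circles) and replicate 2 (squares). Filled symbols and bold names are the 10 genes, open symbols their relatives, and open triangles the limit that 0 counts allow. Relatives of the 10 genes lie under 30 CPM, and the miR-19 group holds no counts.

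The libraries were compared gene by gene with a 2-sided exact binomial test of the counts against the library totals, with Benjamini-Hochberg adjustment over the 472 genes whose counts averaged 10 or more. The test takes reads as independent and leaves out the spread between animals, so a call says only that the 2 libraries differed by more than read sampling. All 8 members that could be tested were called, against a background of 59.7% of all genes tested. That background includes genes with few counts. With the test kept to genes averaging 100 or more counts, as all 8 did, 242 of 291 genes were called. Of the 8, 3 were higher in replicate 2 (background 39.4%) and 5 in replicate 1 (background 20.3%). With 8 genes, nothing is read from the distance to these shares. The split of directions depends on the scaling. TMM scaling (trimmed mean of M-values) moves all log2 ratios by -0.17, and with it 2 members were higher in replicate 2 and 5 in replicate 1, and 141 and 137 of all genes.

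Mir106b had the largest difference of the 10. It was 3.42-fold higher in replicate 2 (95% exact interval 3.17 to 3.70), a log2 ratio of 1.77 with a binomial adjusted p of 6.41e-262. Of the 291 genes averaging 100 or more counts, 8 had a larger absolute log2 ratio than Mir106b, or 2.75%, and the median absolute log2 ratio was 0.34. Within its cluster, Mir93 was 1.22-fold higher in replicate 1 (1.19 to 1.26), and Mir25 was 1.38-fold higher in replicate 2 (1.15 to 1.67). For every 100 reads of Mir93 there were 6.46 reads of Mir106b in replicate 1 (95% interval 6.01 to 6.93) and 27.1 in replicate 2 (26.0 to 28.2). Reads of Mir25 per 100 of Mir93 were 1.47 (1.27 to 1.70) in replicate 1 and 2.49 (2.21 to 2.80) in replicate 2. These proportions do not depend on the scaling, and for both pairs the intervals of the libraries did not overlap. Since Mir106b and Mir93 come from the same transcript, that of Mcm7, their hairpins are printed with the main arm in capitals (RefSeq, GRCm38.p6).
Mir106b: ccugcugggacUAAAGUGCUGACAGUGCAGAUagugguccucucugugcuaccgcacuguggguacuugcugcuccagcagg
Mir93: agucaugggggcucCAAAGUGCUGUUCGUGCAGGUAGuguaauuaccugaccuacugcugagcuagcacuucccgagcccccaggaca
The annotated main arm of Mir106b is 21 bases long and that of Mir93 is 23.

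The other members differed by 1.38-fold or less between the libraries. Mir18 was 1.34-fold higher in replicate 2 (95% exact interval 1.15 to 1.58), with a log2 ratio of 0.42. Its direction and that of Mir25 held after TMM scaling, but the binomial adjusted p was then 0.0475 for Mir18 and 0.0510 for Mir25. Higher in replicate 1 were Mir20a by 1.20-fold (1.11 to 1.29), Mir92-1 by 1.17-fold (1.11 to 1.22), Mir92b by 1.11-fold (1.09 to 1.12) and Mir17 by 1.08-fold (1.05 to 1.12). The log2 ratios of these 4 ran from -0.26 to -0.12, against a median of 0.17 over the 291 genes, so they lay lower still relative to that median. Within Mir17-92, 100 reads of Mir17 went with 24.9 reads of Mir20a in replicate 1 (23.5 to 26.4) and 22.5 in replicate 2 (21.2 to 23.9), and with 63.0 (60.5 to 65.7) and 58.5 (56.2 to 61.0) reads of Mir92-1. The intervals of the libraries overlapped for both of these pairs. They did not for Mir18, at 4.41 (3.88 to 4.99) and 6.43 (5.79 to 7.12) reads per 100 of Mir17.

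**Figure D4:**
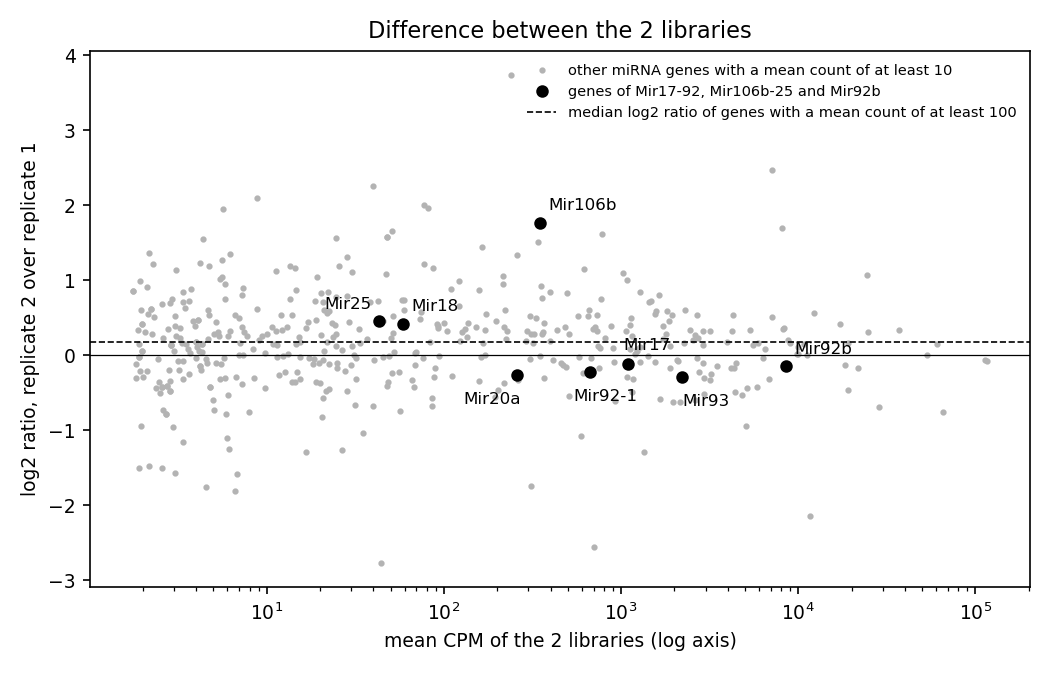
Log2 ratio of replicate 2 over replicate 1 against mean CPM (log axis) for the 472 genes tested. Black points are the 8 members tested, grey points the other genes, and the dashed line the median of 0.17. Mir106b stands at 1.77, and the other 7 lie between -0.29 and 0.46.

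The genes nearest in level to the highest 3 members, by the summed absolute difference of log2(CPM + 1) over the 2 libraries, were Mir328 for Mir92b (difference 0.31), Mir181b-2 for Mir93 (0.21) and Mir296 for Mir17 (0.07). With 2 libraries this likeness is one of level, and nothing is drawn from it about shared control. Mir328 had 8510 CPM in replicate 1 and 9496 CPM in replicate 2, Mir181b-2 had 2147 and 2028 CPM, and Mir296 had 1157 and 1085 CPM.

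The 10 genes were set beside 2 families of like kind. The miR-15/16 family, which restrains the cell cycle, had 7 of 8 listed genes detected, a median of 331 CPM and a sum of 2856 CPM in replicate 1 and 4202 CPM in replicate 2. The clusters of Mir23, Mir27 and Mir24, also a pair of paralogous transcripts, had 6 of 6 detected, a median of 779 CPM and sums of 30104 and 21557 CPM. The corresponding values of the 10 genes were 8 of 10, 304 CPM, and 13766 and 12626 CPM. The counts of all these lists leave out reads aligned to several places. Identical mature copies were looked for only for the 10 genes, so levels in the other lists may also be incomplete. The difference between these lists was not tested.

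Markers of the cell types a hippocampal sample can hold were read in the same libraries. Of 11 neuronal marker genes 8 were detected and none was at 0 in both libraries. They summed to 32606 CPM in replicate 1 and 34437 CPM in replicate 2, led by Mir132 at 14669 and 19562 CPM. The median of the 11 was only 86.0 CPM. Mir9-1 had 13.7 CPM in replicate 1 and 11.6 CPM in replicate 2, Mir9-2 had 0.772 and 1.87 CPM, and Mir9-3 had 106 and 66.1 CPM. The 3 copies of Mir124a had at most 16 counts in a library, in counts that leave out reads aligned to several places. Whether reads of miR-124 or miR-9 were among those was not tested, so their levels cannot be read from these counts. Red blood cells, which also carry miR-93, miR-25, miR-106b and miR-92a, were represented by Mir451a, Mir144 and Mir486, all 3 detected, which summed to 41.9 CPM in replicate 1 and 56.9 CPM in replicate 2. Mir451a, the defining gene of that list, had 17.4 and 26.2 CPM, below each of Mir93, Mir17, Mir92-1, Mir20a, Mir106b, Mir18 and Mir25. Leukocyte markers summed to 1273 and 1021 CPM with 4 of 4 detected, nearly all of it Mir150 at 1183 and 966 CPM. Of the endothelial markers, Mir126a had 5300 and 5849 CPM and Mir126b was at 0. The part of these cells in the levels of the 10 genes was not tested. In bulk tissue, fewer cells of a type and less RNA per cell cannot be told apart.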

How the data were processed

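Small RNA from 2 hippocampus libraries was analysed from the deposited tables of raw read counts per miRNA gene. The authors' build is mm10 and their annotation GENCODE M21, per the text file deposited with each table, while the aligner and counter were not given in the sources used here. The tables hold 3 columns of counts and 4 rows that name no gene. The column on the strand of the gene was used, the 4 rows were left out of totals, and counts were scaled to CPM. All 2202 gene identifiers matched GENCODE M21.

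Sequences came from RefSeq (GRCm38.p6), in which all 10 genes matched at the same coordinates. Levels are means ± SD of 2 libraries. With 1 group there is no group comparison, so libraries were compared with a 2-sided exact binomial test (scipy 1.17.1) and Benjamini-Hochberg adjustment at 0.05. The test was tried on simulated counts that held only read sampling and set fold changes. That trial shares the assumption of the test, so it cannot show how the test behaves with spread between animals. Log2 ratios carry a pseudocount of 1. Alternatives were TMM (edgeR 4.0.16) and DESeq2 1.42.0 size factors, other count minimums and pseudocounts, the column that ignores strand, a total with reads aligned to several places, and each library alone. The members and lists were chosen with earlier results of these data known. The text names the 10 members, all genes with their seeds, listed comparison and marker genes, and the nearest gene in level to each of the 3 highest members. Mir497a and Mir486b, on those lists, matched no gene name. The clusters with a gene at 0 and the reads per 100 of a neighbour were chosen after values were seen.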

Additional observations from a re-analysis of the deposited data

Results flagged for a closer look

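Both libraries held more reads with several places of alignment than gene-assigned counts, at 1.17 per count in replicate 1 and 1.18 in replicate 2. These reads stand in a row of the tables that names no gene and enters no level of the report. It bears on Mir92-1 and Mir19b-1, whose mature sequences are identical to those of genes on chromosome X, and the places of these reads were not analysed here.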

How the results depend on the processing

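No paired analysis was possible because the study has a single group. Of 56 alternative log2 ratios of the members, 53 kept their direction and their side of the threshold and none changed sign. The calls of Mir18 (log2 ratio 0.25, adjusted p 0.0516) and Mir25 (0.28, 0.0567) were lost under DESeq2 size factors, and that of Mir25 also under TMM (0.29, 0.0510). Members called numbered 6 to 8 over the alternatives. Genes called ran from 242 of 291 tested (mean count of at least 100) to 284 of 801 (at least 1 count in total). The number of members detected was 8 under every alternative, with either library left out as well. Over the 8 detected members and 4 alternatives of column, scaling or total, 24 of 32 levels stayed within 1 SD. Of those beyond it, 7 fell under the total with reads aligned to several places and 1 under the column that ignores strand. That total lowered all 8 members, and Mir106b, at 160 CPM against 348 CPM, stayed within 1 SD only because its SD was 270 CPM. Leaving out a library is not counted here, since each of 2 values always lies within 1 SD of their mean. A total that includes reads aligned to several places lowered the sum of Mir17-92 to 956 CPM and that of Mir106b-25 to 1198 CPM. Their ratio cannot move under this change, since the same total divides both sums and the gene counts stay as they were. The column that ignores strand gave 2775 CPM for Mir106b-25. Without the genes that have an identical copy, the sum of Mir17-92 was 1412 CPM and its ratio to Mir106b-25 0.542. Both could only fall, since these genes belong to Mir17-92 alone. The shares of the miR-17 and miR-25/92 seeds were then 31.2% and 68.3%. With 1 library left out the ratio was 0.763 or 0.833. At this depth a count of 0 bounds only the reads assigned to Mir19a and Mir19b-1, not reads aligned to several places.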
